A study of Mus musculus with 7 samples.

Results

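The genes described here set cells grown in N2B27(2i) apart from induced pluripotent stem (iPS) cell lines grown in KSR medium. A gene belonged to the set where both arrays from 2i cultures lay above, or both lay below, all 3 arrays from KSR cultures. By this rule 5174 of 19938 genes measured (26.0%) belonged, of which 2564 (12.9%) were higher in 2i and 2610 (13.1%) were lower. With 2 arrays against 3 there are few possible orders, so many genes that do not differ between the media meet the rule too. Their share among the 5174 genes was not estimated, and the count is no measure of how far the media differ. The rule reads the same values that the comparison of the media rests on, so the separation of these genes and its size are a description and support nothing further. In bulk RNA, fewer cells of a type and less RNA per cell cannot be told apart.

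The 2i group held 2 arrays, 1 of iPS line O4-1 and 1 of OG2 embryonic stem (ES) cells. The KSR group held 3 arrays, 1 each of iPS lines O4-1, O4-2 and O4-4. Per the labels, the iPS lines came from mouse embryonic fibroblasts infected with Oct4, and OG2 is the genetic background named for the ES cells. The series also holds 1 array of mouse embryonic fibroblasts (MEFs, 129/OG2) in FBS medium and 1 of MEFs in a medium called iCD1, which took no part in the rule. Line O4-1 alone was measured in both media. Cell type and medium cannot be told apart in the ES array, since no ES cells in KSR were measured. Each iPS line was measured once per medium, and the sources used here say neither how many clones or cultures stand behind an array nor whether feeder cells were present. The source field of the iPS samples names iCD1, that of the ES sample names fibroblasts, and titles and growth conditions were followed here. Both 2i arrays carried the messenger RNA of pluripotent cells: Pou5f1, which encodes Oct4, measured 10.77 in iPS and 10.66 in ES cells on the log2 scale, against 3.40 and 4.04 in MEFs. Whether the infected Oct4 adds to the value in iPS cells was not tested. Nanog measured 11.15 in iPS and 11.26 in ES cells in 2i, against 5.35 and 5.02 in MEFs. For Sox2 the values were 10.23 and 10.16, against 5.21 and 5.27.

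2i stands for a pair of small inhibitors, against MEK in the ERK pathway and against GSK3, a kinase whose inhibition stabilises beta-catenin. In mouse pluripotent cells, ERK signalling drives exit from the naive state of the early embryo's inner cell mass, and cultures without the inhibitors hold cells that drift toward the formative and primed states preceding gastrulation. N2B27 is a serum-free medium, so its lipid and nutrient supply differs from that of media with serum or a serum substitute. These facts are background to the lists of genes used below and not results of these arrays.

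Most of the separated genes differed little. The median size of their mean difference was 0.30 on the log2 scale, and 4283 of them (82.8%) differed by less than 0.5. With an array left out the rule is met more easily, by construction, so a list's count without an array is read against the share of all genes without it. Those shares were 22.7% upward and 21.5% downward without line O4-4, 26.3% and 27% without the iPS array in 2i, and 27.4% and 23.7% without the ES array. They were 17.3% and 17.2% without line O4-1 in KSR and 19.5% and 18.9% without line O4-2. A mean difference of 1 or more (2-fold) together with separation was found for 34 genes higher in 2i (0.171% of all genes) and 68 genes lower (0.341%). No gene passed an adjusted p of 0.05 in limma's fit of these 5 arrays (0 of 19938 genes, 0%), where the smallest adjusted p was 0.485, while 1869 genes (9.37%) had an unadjusted p under 0.05. The labels do not say that the cultures were separate experiments, so these p-values measure only the spread between these arrays. Genes with a mean level at or above the median of all genes, 5.19, were separated downward more often than upward, at 18.6% against 11.6%, and genes below it were separated upward more often, at 14.2% against 7.59%. Their median differences were close to 0 in both groups of genes, at -0.02 and 0.04.

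**Figure D1:**
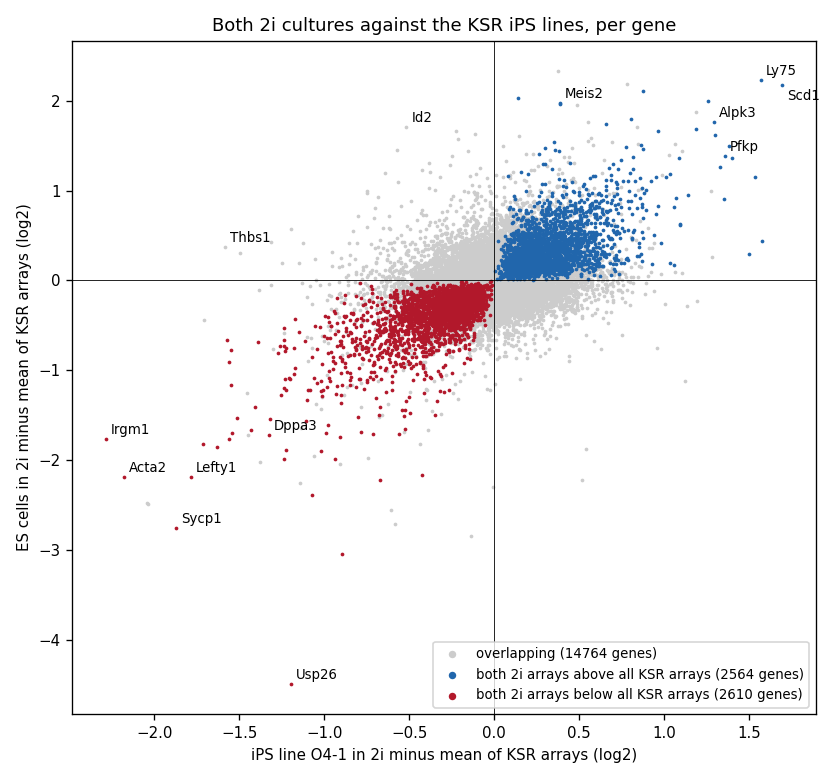
Each point is a gene, placed by the log2 difference between iPS line O4-1 in 2i and the mean of the 3 KSR arrays (x axis) and between ES cells in 2i and the same mean (y axis). The 2564 genes above all KSR arrays lie in the upper right, the 2610 below all KSR arrays lie in the lower left, and for Id2 and Thbs1 the cultures lie on opposite sides of the KSR mean.

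The largest differences upward belonged to genes of many kinds, with some genes of fat and sugar metabolism among them. Scd1 and Scd2 encode stearoyl-CoA desaturases, which put the first double bond into fatty acids. Scd1 measured 6.70, 7.03 and 8.41 in KSR lines O4-1, O4-2 and O4-4, and 9.07 in iPS and 9.55 in ES cells in 2i. Both 2i arrays thus lay above the highest KSR line, O4-4, and the mean difference was 1.93 (SE 0.52, limma adjusted p = 0.486). Scd2 measured 8.77, 9.16 and 10.45 in KSR against 10.76 and 11.08 in 2i, a difference of 1.46 with O4-4 again nearest to 2i. Both desaturase genes were higher in MEFs in iCD1, at 10.39 for Scd1 and 12.28 for Scd2, than in either 2i culture.

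Pfkp, the platelet form of phosphofructokinase, which controls entry of sugar into glycolysis, was 1 of 3 genes whose lowest 2i array lay 1 or more above the highest KSR array. It measured 8.07, 7.91 and 7.35 in KSR and 9.13 and 9.16 in 2i, a difference of 1.37 (SE 0.23, limma adjusted p = 0.485). The 2i cultures were almost equal and their margin over the KSR lines was 1.07. The other genes with so wide a margin were Mgarp, encoding a mitochondrial protein, with a margin of 1.01, and Olfr113, an olfactory receptor gene, with 1.02. Their 2i arrays reached only 4.94 and 4.16, below the median gene, and both were named after their values were seen.

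Aldoc, encoding the brain form of the glycolytic enzyme aldolase, measured 6.31, 6.83 and 6.07 in KSR and 7.59 and 8.09 in 2i. Ly75, an endocytic receptor gene, was separated only narrowly, since O4-4 at 7.99 lay just below iPS cells in 2i at 8.07, while O4-1 and O4-2 in KSR measured 5.80 and 5.70. Lrrc31, Lrrc34 and Alpk3 also stood among the largest differences, at 1.63, 1.44 and 1.53, and Acsf2, of the acyl-CoA synthetase family, at 1.20. Sfrp1, a secreted Wnt antagonist, differed by 1.30. Meis2, a homeobox transcription factor gene, owed its difference of 1.18 mainly to ES cells, with 6.29 there, 4.70 in iPS cells in 2i and 4.24 to 4.44 in KSR.

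Downward, the largest difference was that of Usp26, an X-linked deubiquitinase gene of the male germline. It measured 9.20, 7.98 and 8.57 in KSR, 7.39 in iPS cells and 4.10 in ES cells in 2i, a mean difference of -2.84 (SE 0.96, limma adjusted p = 0.508). Both 2i arrays lay below every KSR line, the iPS array by a margin of 0.60 only. Against the KSR mean the iPS array differed by -1.2 and the ES array by -4.49, so the mean difference rested mainly on ES cells. Acta2, the smooth muscle actin gene, had the widest margin downward, 1.61: it measured 8.18, 9.12 and 7.79 in KSR and 6.19 and 6.18 in 2i, a difference of -2.18 (SE 0.38, limma adjusted p = 0.485). Irgm1, an interferon-induced GTPase gene, had the next, 1.37, with 6.08, 5.82 and 5.36 in KSR and 3.47 and 3.99 in 2i. For both genes the 2i arrays were also below both MEF arrays, which held 12.48 and 10.55 for Acta2 and 6.34 and 7.02 for Irgm1.

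Grhl2, an epithelial transcription factor gene, measured 6.64, 6.43 and 5.43 in KSR and 4.61 and 4.40 in 2i. Lrp2 and Cubn, whose products megalin and cubilin work together as endocytic receptors, differed by -1.62 and -1.55. Esrp1, an epithelial splicing regulator gene, differed by -1.61 and was barely separated. No list of epithelial genes was counted, and Cdh1, the epithelial cadherin gene, overlapped, with 9.04, 8.97 and 9.28 in KSR and 8.77 and 9.26 in 2i. Ina, a neuronal intermediate filament gene, measured 8.07, 8.10 and 6.94 in KSR and 5.99 and 5.88 in 2i, a difference of -1.77. Tspan6, a tetraspanin gene, differed by -1.55 and was higher in both MEF arrays, at 8.91 and 9.38, than in any pluripotent culture.

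**Figure D2:**
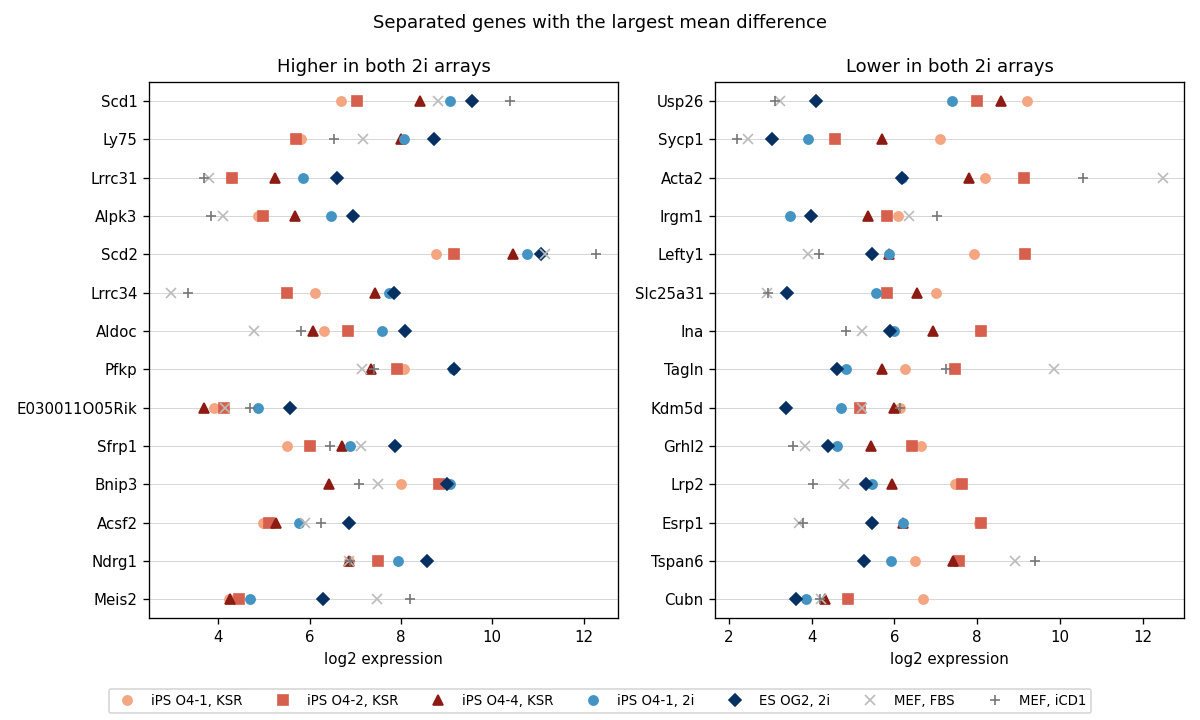
Log2 expression on every array (x axis) of the 14 separated genes with the largest mean difference upward (left) and downward (right), with KSR lines in orange and red, 2i cultures in blue and MEFs in grey. Line O4-4, the triangles, is often the KSR line nearest to 2i, and ES cells are far below iPS cells in 2i for Usp26 at 4.10 against 7.39.

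A list of glycolysis and hypoxia response genes held 28 entries, of which 25 were measured here, Gapdh, Gpi1 and Eno1 having no probe set used. Of the 25, 15 (60.0%) were separated upward and 0 downward, against 12.9% and 13.1% of all genes. This list and those below were chosen with earlier results of these data known, so their shares are a description and no test. For each list below the shares over all genes stay 12.9% upward and 13.1% downward. All 25 had a higher mean in 2i, with a median difference of 0.47 against 0.01 over all genes, and 0 passed limma's adjusted threshold. The glucose transporter gene Slc2a3 measured 10.67, 10.90 and 10.69 in KSR and 11.34 and 11.49 in 2i. Hk2, the hexokinase that commits glucose to the cell's metabolism, measured 8.45, 8.75 and 9.08 in KSR and 9.64 and 9.73 in 2i. The KSR lines were tightly grouped for Slc2a3 and more spread for Hk2, and both 2i arrays lay clear of them, with differences of 0.66 (SE 0.13) and 0.93 (SE 0.20).

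The enzymes further along the pathway differed in the same direction. Aldoa, an aldolase gene, measured 11.23, 11.46 and 11.32 in KSR and 11.96 and 12.04 in 2i, a difference of 0.67. Tpi1, Pgk1 and Ldha, which encode triosephosphate isomerase, phosphoglycerate kinase and lactate dehydrogenase, differed by 0.72, 0.66 and 0.54, and Pkm, the pyruvate kinase gene, by 0.27. For each of these 4, O4-2 was the highest KSR line and O4-4 the lowest. Hk1, Slc2a1 and Pfkl overlapped between the media, with differences of 0.09, 0.32 and 0.47.

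Among the other genes of the list, Vegfa, a growth factor gene of blood vessels, measured 6.34, 6.76 and 6.68 in KSR and 7.26 and 7.53 in 2i. Bnip3, a gene of mitochondrial turnover, measured 8.01, 8.83 and 6.42 in KSR and 9.08 and 9.01 in 2i, so that its difference of 1.29 carried the wide spread of the KSR lines (SD 1.22, n = 3). P4ha1 and Egln1, both encoding prolyl hydroxylases, differed by 0.82 and 0.66, and Ndrg1 by 1.18. Pdk1, the kinase that holds pyruvate dehydrogenase inactive, overlapped, with 8.22, 8.38 and 6.41 in KSR and 8.02 and 7.63 in 2i. Egln3, Ankrd37, Ddit4, Kdm3a and Mxi1, further targets of the hypoxia response, overlapped too, with differences of 0.26, 0.15, 0.27, 0.29 and 0.15. Line O4-4 was the lowest KSR line for Bnip3 and Pdk1, whereas for the desaturase genes it was the highest. Without line O4-2 the median of the list was 0.73.

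The letters ACGTG are the core to which hypoxia-inducible factors bind. RefSeq promoters (GRCm38.p6, 250 bases before to 50 after a start) were found for 23 of the 25 genes, with 37 windows. ACGTG stood on either strand in 21 of these windows (56.8%) and in 21.6% of the 19177 windows of all 15614 measured genes with one. It stood in 12 of 18 windows (66.7%) of the genes separated upward and in 9 of 19 (47.4%) of the overlapping genes. Among all separated genes it stood in 20.8% of windows of genes higher and 25.2% of those lower in 2i, close to the share in all genes. The 250 bases before the start of Hk2 and Pgk1 are shown because each holds the letters more than once, with every match, ACGTG or its complement CACGT, in capitals.
Hk2 (chr6:82774455-82774704, minus strand): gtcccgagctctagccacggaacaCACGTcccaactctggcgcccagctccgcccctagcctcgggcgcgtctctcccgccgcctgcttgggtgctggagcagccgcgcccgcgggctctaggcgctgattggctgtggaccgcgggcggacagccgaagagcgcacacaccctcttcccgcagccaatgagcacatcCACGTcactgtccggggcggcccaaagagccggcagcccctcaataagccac
Pgk1 (chrX:106186850-106187099, plus strand): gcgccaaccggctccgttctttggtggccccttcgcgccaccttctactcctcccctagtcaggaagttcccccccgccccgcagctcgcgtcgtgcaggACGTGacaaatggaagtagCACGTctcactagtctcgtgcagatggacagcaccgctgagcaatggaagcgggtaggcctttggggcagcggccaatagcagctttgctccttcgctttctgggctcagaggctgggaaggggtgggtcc
A match in such a window is a description of its letters and no evidence of binding.

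Genes of cholesterol synthesis were also higher in 2i. Of 20 genes measured from 24 entries, 12 (60.0%) were separated upward and 0 downward, all 20 had a higher mean in 2i, and the median difference was 0.44, with 0 past limma's adjusted threshold. Stard4, a sterol transporter gene, had very similar values in the KSR lines, 6.81, 6.88 and 6.90, and measured 7.58 and 7.83 in 2i, a difference of 0.84 (SE 0.12). Msmo1, a methylsterol oxidase gene, measured 9.30, 9.73 and 9.94 in KSR and 10.38 and 10.73 in 2i. Lss, encoding the lanosterol synthase that closes the sterol rings, measured 6.92, 7.42 and 7.27 in KSR and 7.83 and 8.15 in 2i. In all 3 genes the ES array was the highest of the 5 and both 2i arrays lay above every KSR line.

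Tm7sf2 and Dhcr7, which encode late reductases of the pathway, differed by 0.79 and 0.65, Fdft1 and Sqle, of its first committed steps, by 0.62 and 0.41, and Hmgcs1, an early enzyme gene, by 0.44. Srebf2, the transcription factor gene that governs the pathway, measured 8.34, 8.51 and 8.75 in KSR and 8.99 and 8.94 in 2i, a difference of 0.43. Insig1, encoding the sterol sensor's partner, had the same value in O4-4 and in iPS cells in 2i, 10.46, and so was not separated. The median of the list over KSR mean was 0.26 in iPS cells and 0.68 in ES cells in 2i. On the mean difference the ES array therefore weighed more, and without the iPS array in 2i 19 genes were separated upward, where 26.3% of all genes were. The list was also high in MEFs in iCD1, at a median of 0.60 over the KSR mean, and lower in MEFs in FBS, at 0.12.

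CCAAT is the box bound by nuclear factor Y, which works beside the sterol-regulated factors. It stood in 16 of 19 promoter windows (84.2%) of 16 genes of the list and in 37.4% of all windows, in 8 of 10 windows of the genes separated upward and in 8 of 9 of the overlapping genes. Msmo1 and Lss are shown as genes with clear separation, with CCAAT or its complement ATTGG in capitals.
Msmo1 (chr8:64733579-64733828, minus strand): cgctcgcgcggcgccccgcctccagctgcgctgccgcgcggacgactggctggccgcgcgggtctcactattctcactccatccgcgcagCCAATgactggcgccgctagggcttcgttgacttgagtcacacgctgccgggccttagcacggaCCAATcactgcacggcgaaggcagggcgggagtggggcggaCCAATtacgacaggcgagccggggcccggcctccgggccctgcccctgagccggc
Lss (chr10:76531355-76531604, plus strand): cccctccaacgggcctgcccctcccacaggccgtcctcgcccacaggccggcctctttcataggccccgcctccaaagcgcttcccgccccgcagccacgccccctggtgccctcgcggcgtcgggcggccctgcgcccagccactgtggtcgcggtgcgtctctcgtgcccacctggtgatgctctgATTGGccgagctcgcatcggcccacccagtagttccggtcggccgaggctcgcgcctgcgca
The box was as frequent in overlapping genes of the list as in separated ones.

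The fatty acid list of 16 measured genes had 6 (37.5%) separated upward, with Scd1 and Scd2 among them, and 0 downward. Over all genes 12.9% were separated upward and 13.1% downward. The list had a median difference of 0.28 and 0 genes past limma's adjusted threshold. Line O4-4 in KSR had a list median of 0.29 over the KSR mean, between iPS (0.23) and ES cells (0.44) in 2i. Lines O4-1 and O4-2 stood at -0.3 and -0.02. Fads1, a desaturase gene for polyunsaturated fatty acids, measured 7.95, 8.25 and 8.61 in KSR and 8.97 and 9.16 in 2i. Its neighbour in function Fads2 measured 7.79, 8.31 and 8.42 in KSR and 8.75 and 9.01 in 2i. The KSR lines had the same order for both, with O4-1 lowest and O4-4 highest. Elovl5, an elongase gene, was separated by a hair, with O4-4 at 8.89 and iPS cells in 2i at 8.90, and Srebf1, a regulator gene of fat synthesis, differed by 0.29. The genes of new fatty acid synthesis overlapped: Fasn, the synthase gene, differed by 0.24 and Acaca, the carboxylase gene, by 0.37. Without line O4-4, 11 genes were separated upward and 2 downward, where 22.7% and 21.5% of all genes were. Without the iPS array in 2i 10 were separated upward and 2 downward, where 26.3% and 27% of all genes were.

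**Figure D3:**
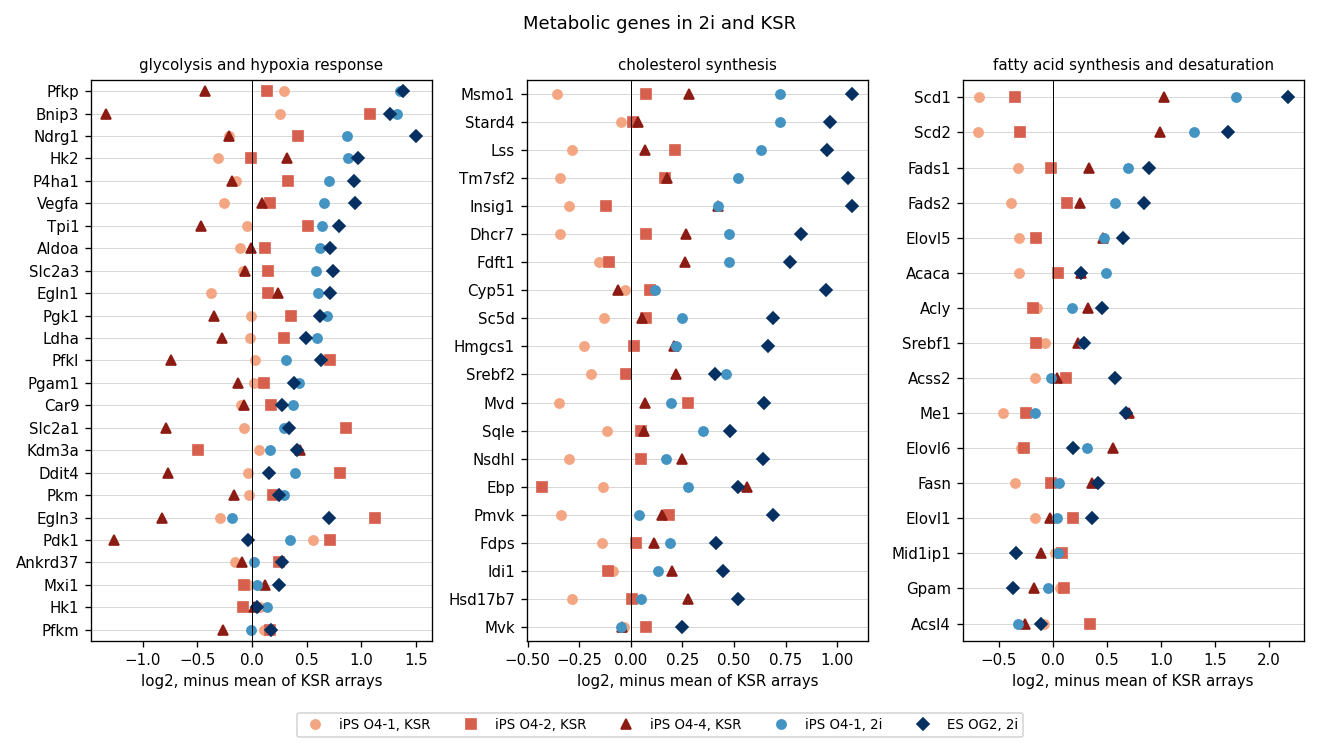
Log2 value of each array minus the mean of the 3 KSR arrays (x axis) for the measured genes of 3 metabolic lists (rows). The blue points of both 2i cultures lie right of the orange and red KSR points for 15 of 25 glycolysis and hypoxia genes, 12 of 20 cholesterol genes and 6 of 16 fatty acid genes.

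Of 22 genes that make serine or answer amino acid shortage 2 were separated upward, Cth and Cbs, which make cysteine from homocysteine. Cbs measured 6.25, 6.18 and 5.92 in KSR and 6.62 and 7.10 in 2i. Of 21 respiratory chain genes 4 were separated upward and 3 downward, with a median of 0.03. Among 12 iron genes 3 were separated downward, including Slc40a1, the iron exporter gene, with 5.75, 6.04 and 4.28 in KSR and 3.95 in both 2i cultures. Fth1, of ferritin storage, and Slc11a2, an iron importer gene, differed by -0.37 and -0.46. The gene separated upward was Aco1, whose product senses iron, at 0.37.

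Naive pluripotency genes, known for high levels in the inner cell mass, had 7 of 20 (35.0%) separated upward and 2 downward. Over all genes 12.9% were separated upward and 13.1% downward. The list had a median difference of 0.51 and 0 genes past limma's adjusted threshold. Line O4-4 in KSR had a list median of 0.45 over the KSR mean, close to iPS (0.50) and ES cells (0.49) in 2i. Lines O4-1 and O4-2 stood at -0.06 and -0.39. Nr0b1, an orphan nuclear receptor gene, measured 9.01, 8.53 and 8.52 in KSR and 9.37 and 9.81 in 2i, a difference of 0.90 (SE 0.22). Klf4 measured 8.15, 8.02 and 8.72 in KSR and 8.85 and 9.11 in 2i, and Klf5 8.36, 8.24 and 8.76 against 9.12 and 8.95. Both Krüppel-like factor genes had O4-4 as the nearest KSR line, as did Esrrb, a nuclear receptor gene, at 7.78, 7.0 and 8.41 in KSR and 8.54 and 8.62 in 2i. Tcl1, a cofactor gene of the kinase AKT, Pecam1, a surface marker, and Fgf4 differed by 0.95, 0.72 and 0.32.

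The naive factor genes with the largest mean differences were not separated. Tfcp2l1 measured 7.37, 6.70 and 9.68 in KSR and 9.10 and 9.79 in 2i, and Tbx3 7.28, 6.74 and 8.87 against 8.91 and 8.63. In both, line O4-4 in KSR lay within the range of the 2i cultures while O4-1 and O4-2 lay well below. Without line O4-4, 15 of the 20 naive genes were separated upward, with a median of 0.78, where 22.7% of all genes were, and without line O4-2 the median was 0.21. Dppa3, a gene of the early embryo and germ cells, went against its list: it measured 7.02, 6.57 and 7.32 in KSR and 5.64 and 5.25 in 2i, a difference of -1.53 (SE 0.25, limma adjusted p = 0.485). Zscan10, a zinc finger gene of pluripotent cells, measured 8.36, 8.28 and 8.15 in KSR and 7.73 and 7.47 in 2i. The higher 2i array lay 0.93 below the lowest KSR line for Dppa3 and 0.41 below it for Zscan10.

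Core pluripotency genes were 2 of 20 separated upward and 5 downward, where 12.9% and 13.1% of all genes were, with a median of -0.09. Pou5f1, Sox2 and Nanog overlapped between the media, with differences of -0.15, 0.15 and 0.66, and Nanog measured 10.16, 9.94 and 11.55 in KSR and 11.15 and 11.26 in 2i. Lin28a and Lin28b encode RNA-binding proteins that hold back let-7 microRNAs. Lin28a measured 9.05, 9.05 and 8.03 in KSR and 7.91 and 7.19 in 2i, and Lin28b 5.74, 6.16 and 4.94 against 4.90 and 3.90. In both, O4-4 lay just above iPS cells in 2i. Mycn, a proto-oncogene of growth, differed by -0.59.

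Formative and primed genes, which mark the step after the naive state, had 4 of 19 separated downward (21.1%) and 1 upward. Over all genes 13.1% were separated downward and 12.9% upward, and 18.6% downward among genes at or above the median level. The list had a median of -0.40 and 0 genes past limma's adjusted threshold. Line O4-4 in KSR had a list median of -0.66 against the KSR mean, below iPS (-0.32) and ES cells (-0.40) in 2i. Lines O4-1 and O4-2 stood at 0.14 and 0.47. Dnmt3b, a gene of new DNA methylation, measured 8.56, 8.84 and 7.31 in KSR and 7.14 and 7.01 in 2i. Pim2, a kinase gene, measured 8.15, 9.0 and 6.69 in KSR and 6.63 and 6.41 in 2i, and Cldn6, a tight junction gene, 7.40, 7.99 and 6.38 against 6.25 and 6.04. In all 3 genes O4-4 lay close to the 2i arrays and far from its sister lines. Sox4 was separated more widely, with 6.49, 6.92 and 6.2 in KSR and 5.71 in both 2i cultures. Otx2, a transcription factor gene of the formative state, overlapped, with 6.85, 6.43 and 4.50 in KSR and 4.63 and 5.16 in 2i. Without O4-4 12 of the 19 were separated downward, with a median of -0.68, where 21.5% of all genes were, and without line O4-2 the median was -0.19.

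In the list of DNA methylation genes 3 of 13 were separated upward and 1, Dnmt3b, downward. Uhrf1, which recruits the maintenance methyltransferase, measured 8.46, 8.65 and 8.93 in KSR and 8.99 and 9.06 in 2i. Dnmt3a, the sister gene of Dnmt3b, overlapped, with 7.93, 7.96 and 6.39 in KSR and 6.76 and 5.92 in 2i. Dnmt3l, the cofactor gene of both, had the widest spread among the KSR lines, 9.16, 8.99 and 5.54, around 7.06 and 6.74 in 2i.

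Germline genes were the list with the highest share separated downward. Of 22 measured genes 8 (36.4%) were lower in both 2i arrays and 0 higher, where 13.1% and 12.9% of all genes were. The list had a median difference of -0.48 and 0 genes past limma's adjusted threshold. Sycp1, of the synaptonemal complex that joins chromosomes in meiosis, measured 7.09, 4.57 and 5.71 in KSR and 3.92 and 3.03 in 2i, a difference of -2.31 (SE 0.74, limma adjusted p = 0.501). Slc25a31, the ADP/ATP carrier gene of germ cells, measured 7.01, 5.81 and 6.54 in KSR and 5.56 and 3.41 in 2i, and Taf7l, a transcription factor subunit gene of spermatogenesis, 6.68, 5.81 and 4.97 against 4.80 and 3.92. In all 3 genes ES cells were the lowest of the 5 cultures and line O4-1 in KSR the highest. Zcwpw1, a reader of meiotic chromatin marks, and Ddx4, the germ cell helicase vasa, differed by -1.09 and -0.83. Dazl, an RNA-binding protein gene of germ cells, overlapped, with 8.16, 6.0 and 7.83 in KSR and 6.85 and 6.49 in 2i. Without line O4-1 in KSR the median of the list was -0.25, and without the iPS array in 2i 13 genes were separated downward, where 27% of all genes were.

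CACGTG is the E-box, which holds ACGTG within it and is the site of MYC and MAX factors. It stood in 12 of 26 promoter windows (46.2%) of the 22 germline genes and in 8.24% of all windows, in 4 of 9 windows of the separated genes and in 8 of 17 of the overlapping genes. ACGTG, with or without the full E-box, stood in 17 of the 26 (65.4%). Sycp1 and Slc25a31 are shown as the germline genes with the largest differences, with the E-box in capitals.
Sycp1 (chr3:102936101-102936350, minus strand): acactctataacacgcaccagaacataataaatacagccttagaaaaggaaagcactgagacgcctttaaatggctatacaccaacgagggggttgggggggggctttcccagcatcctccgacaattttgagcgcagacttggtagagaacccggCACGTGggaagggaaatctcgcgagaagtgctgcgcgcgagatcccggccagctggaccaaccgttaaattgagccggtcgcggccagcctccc
Slc25a31 (chr3:40708621-40708870, plus strand): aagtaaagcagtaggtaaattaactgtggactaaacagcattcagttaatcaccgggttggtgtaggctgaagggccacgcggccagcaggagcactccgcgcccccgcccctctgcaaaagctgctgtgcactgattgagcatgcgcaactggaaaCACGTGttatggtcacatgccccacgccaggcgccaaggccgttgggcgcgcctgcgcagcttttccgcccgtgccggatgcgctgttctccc
The E-box was about as frequent in the overlapping germline genes as in the separated ones.

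**Figure D4:**
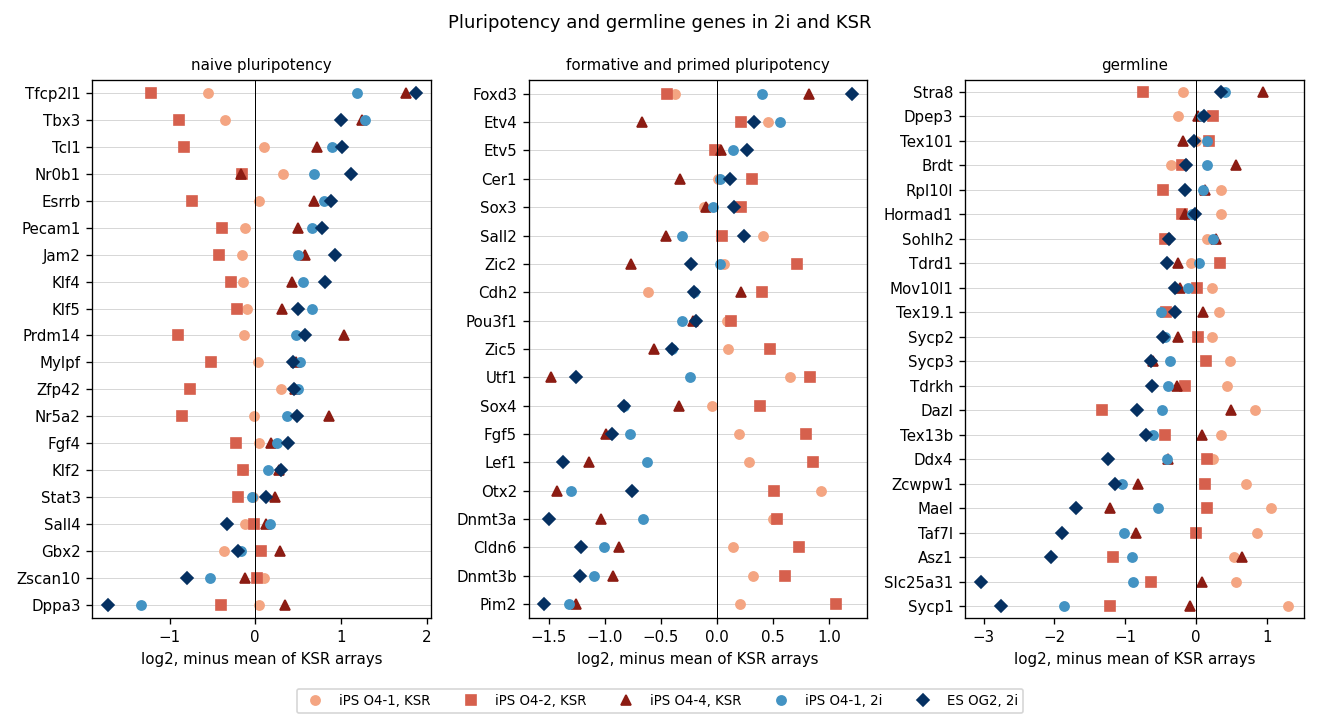
Log2 value of each array minus the mean of the 3 KSR arrays (x axis) for the measured genes of the naive, formative and primed, and germline lists (rows). Line O4-4 in KSR (dark red triangles) lies near or beyond the 2i cultures for Tfcp2l1, Otx2 and Dnmt3a, and ES cells lie furthest left for Slc25a31, at 3.41 against 5.56 in iPS cells in 2i.

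Signalling genes downstream of the inhibited kinases showed no common direction. Of 20 ERK target genes 5 (25.0%) were separated downward and 1 (5.00%) upward, where 13.1% and 12.9% of all genes were. At or above the median level, where 17 of the 20 lay, 18.6% of all genes were separated downward, so the list's share was not far from it. The list had a median of 0.03 and 0 genes past limma's adjusted threshold. Myc measured 6.98, 7.02 and 6.0 in KSR and 5.46 and 5.57 in 2i, and Ccnd1, the cyclin D1 gene, 9.21, 9.31 and 9.22 against 8.85 and 8.82. Both were below every KSR line, as were Spred1 and Il17rd, feedback inhibitors of the pathway, at -0.61 and -0.42. Dusp6, the phosphatase gene that is a standard readout of ERK activity, overlapped, with 7.83, 8.17 and 5.75 in KSR and 7.36 and 7.49 in 2i. Spry4 and Egr1 overlapped as well, with differences of 0.32 and 0.54, and Etv5 was separated upward by 0.20. Without line O4-4 8 of the 20 were separated downward, where 21.5% of all genes were, and the median was -0.16.

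Of 17 Wnt target genes 1 was separated, Ccnd1, downward. Axin2, the feedback gene most often used to read beta-catenin activity, measured 5.57, 5.89 and 7.13 in KSR and 6.02 and 6.19 in 2i, so that line O4-4 in KSR was above both 2i cultures. In the LIF and STAT3 list 4 of 15 were separated upward, Klf4, Klf5, Jak1 and Pim3. Socs2, a feedback inhibitor gene, was separated downward, at -0.35. Line O4-4 in KSR had a list median of 0.29 over the KSR mean, above iPS (0.15) and ES cells (0.21) in 2i. Lines O4-1 and O4-2 stood at -0.14 and -0.2. Without line O4-4 10 of the 15 were separated upward, where 22.7% of all genes were, with a median of 0.33. Without the iPS array in 2i 8 were, where 26.3% of all genes were. In the Nodal list 3 of 18 were separated upward and 1 downward. Lefty1, a secreted inhibitor and target of Nodal, measured 7.92, 9.15 and 5.86 in KSR and 5.86 and 5.45 in 2i. Its difference of -1.99 was large, but O4-4 was higher than iPS cells in 2i by only 0.0029. Lefty2 and Nodal overlapped, at 0.08 and -0.05, while the receptor gene Acvr1b differed by 0.47.

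No list of contractile genes was counted, and the values of Tagln, Myl9 and the fibroblast markers are set beside those of Acta2. Tagln, an actin-bundling protein gene of smooth muscle, measured 6.26, 7.46 and 5.71 in KSR and 4.84 and 4.62 in 2i, a difference of -1.74 (SE 0.50, limma adjusted p = 0.486). Myl9, a myosin light chain gene, was separated by 0.0071 only, with 6.27, 6.92 and 5.45 in KSR and 4.67 and 5.44 in 2i. Line O4-2 was highest in all 3 genes, and MEFs in FBS held 12.48, 9.85 and 9.27 for Acta2, Tagln and Myl9. Of 13 fibroblast and feeder cell markers 3 (23.1%) were separated downward, Thy1, Pdgfra and Prrx1, and 0 upward, with a median difference of -0.18. Without the ES array 9 of the 13 were separated downward, with a median of -0.67, where 23.7% of all genes were, and without the iPS array in 2i the median was 0.19, and 0.04 without line O4-4. Thy1 measured 6.17, 5.96 and 5.70 in KSR and 4.71 and 5.19 in 2i, and Pdgfra 6.44, 5.96 and 5.78 against 5.17 and 5.32. The mean level over the 13 markers was 6.51, 6.47 and 7.03 in KSR, 6.01 in iPS and 6.69 in ES cells in 2i, and 9.08 and 9.97 in MEFs. Col1a1, the collagen gene, overlapped, with 9.17, 9.21 and 10.32 in KSR and 8.90 and 9.87 in 2i. The marker mean of the ES culture lay between those of the KSR lines, while its Acta2 and Tagln lay below all of them. The part of fibroblasts in these differences was not tested.

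Among 8 primitive endoderm markers 2 were separated downward, Dab2, an endocytic adaptor gene, with 6.49, 6.01 and 5.35 in KSR and 4.72 and 4.85 in 2i, and Pdgfra, which is also on the fibroblast list. Of 8 trophoblast markers 1 was separated downward, and of 5 macrophage markers 0. Of 12 neural genes 3 were separated downward, including Nes, an intermediate filament gene, at -0.78, and 1 upward, Neurog2, at 0.20. Among 12 interferon and antigen presentation genes 2 were separated downward, Irf1 and Bst2, at -0.67 and -0.37, and 1 upward, Ifitm2, at 0.19. Of 25 cell cycle genes 2 were separated upward and 4 downward, where 12.9% and 13.1% of all genes were. The p53 list had few separated genes, with 1 of 16 upward and 0 downward. Without the ES array 10 cell cycle genes were separated downward, where 23.7% of all genes were, and without line O4-4 6 p53 genes were, where 21.5% were.

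The remaining lists were mixed. Of 16 BMP pathway genes 3 were separated upward and 2 downward. Of 16 NRF2 targets and metallothioneins 2 were separated upward, Mt1, which binds metals, at 0.80 and Gstm1, a glutathione transferase gene, at 0.70, and 3 downward, including Gclm, of glutathione synthesis, at -0.50. Of 19 matrix and adhesion genes 3 were separated downward, Epcam, an epithelial adhesion gene, at -0.89, Lamb1, a laminin chain gene, at -0.79, and Cd44, a hyaluronan receptor gene, at -0.61, and 1 upward. Of 14 retinoid genes 2 were separated each way, with Crabp2, a retinoic acid carrier gene, at -0.73. Of 14 primitive streak genes 3 were separated upward and 1 downward, with a median of 0.07, and of 7 genes of the two-cell-like state 2 upward and 0 downward. Leaving out an array, which raises the count over all genes too, moved several of the smaller counts by more than 1.5 times. Without the ES array 9 of 19 matrix and adhesion genes and 5 of 8 primitive endoderm genes were separated downward, where 23.7% of all genes were. Without the iPS array in 2i 9 of 16 BMP genes and 8 of 19 matrix and adhesion genes were separated upward, where 26.3% of all genes were. Without line O4-4 the shares of all genes were 22.7% upward and 21.5% downward. Beside these, 6 of 18 Nodal genes were separated each way, and 9 of 21 respiratory chain genes and 4 of 17 Wnt targets upward. Of 20 core pluripotency genes 7 were then separated upward and 9 downward. Without line O4-2 8 of 22 genes of the serine and amino acid list were separated upward, where 19.5% of all genes were.

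Of 18 imprinted genes, which are expressed from 1 parental copy, 6 (33.3%) were separated downward and 0 upward. Over all genes 13.1% were separated downward and 12.9% upward. The list had a median of -0.47 and 0 genes past limma's adjusted threshold. Its median against the KSR mean was -0.62 in iPS and -0.24 in ES cells in 2i. In KSR it was -0.03, 0.16 and -0.22 in lines O4-1, O4-2 and O4-4. Mest measured 9.38, 9.0 and 8.39 in KSR and 8.02 and 7.18 in 2i, a difference of -1.32. Ndn measured 6.42, 6.64 and 6.60 in KSR and 5.99 and 5.71 in 2i, and Peg3 6.82, 6.80 and 6.12 against 5.75 and 5.89. All 3 were clearly below the KSR lines in both 2i cultures and higher in MEFs than in 2i, with Ndn at 9.72 and 9.34 there. Meg3, a maternal non-coding RNA gene, overlapped, with 8.65, 9.22 and 6.90 in KSR and 7.16 and 7.35 in 2i. Without line O4-4, 10 genes were separated downward, where 21.5% of all genes were, and without the ES array 12, where 23.7% were. Without the iPS array in 2i the median was -0.24.

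**Figure D5:**
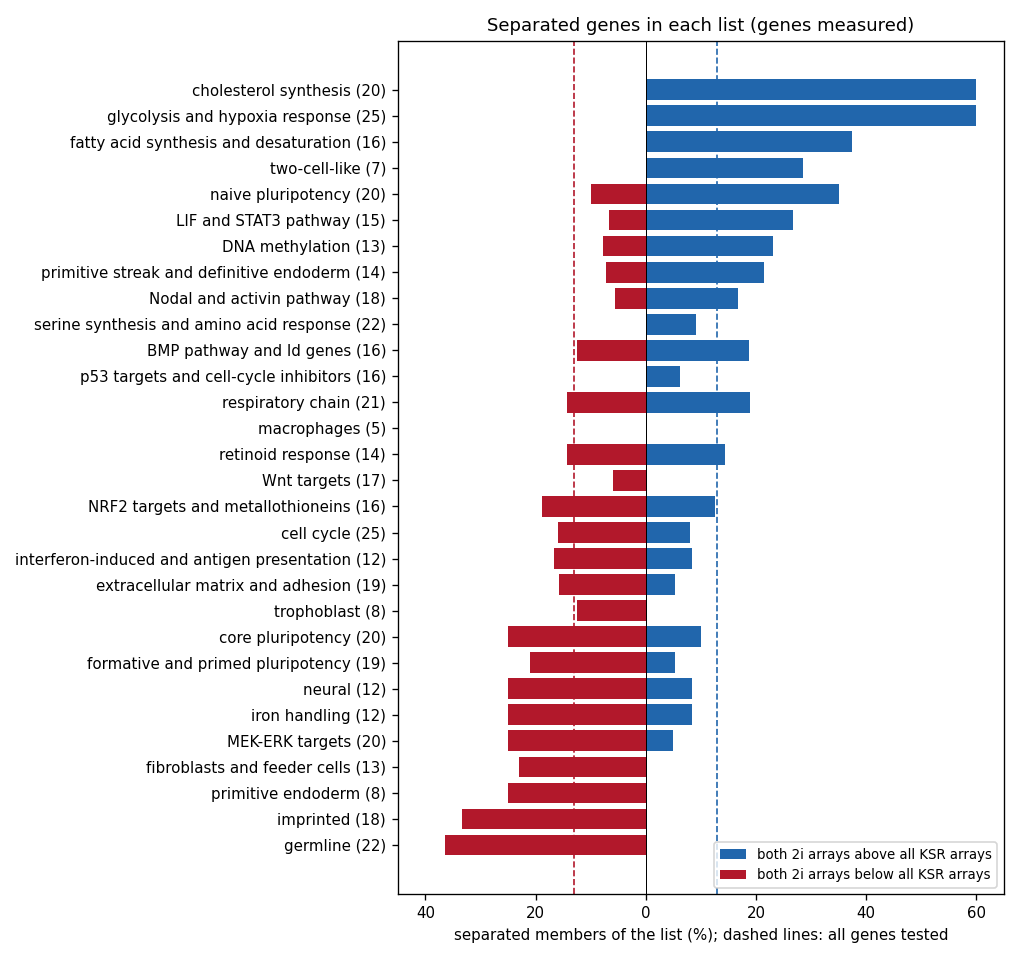
Share of each list's measured genes (number in brackets) separated upward (blue bars, to the right) or downward (red bars, to the left), in percent, with dashed lines at the shares over all genes, 12.9% and 13.1%. The cholesterol and the glycolysis and hypoxia lists reach 60.0% upward, and the germline list 36.4% downward. The lists were chosen with earlier results of these data known.

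The microRNA cluster of Mir17hg, a host transcript that MYC factors are known to raise, was lower in 2i and was picked out after its values were seen. Its probe sets lie on the same transcript and are not independent. Mature sequences from RefSeq (GRCm38.p6, chromosome 14, plus strand) are shown because these small RNAs act through the seed, bases 2 to 8, in capitals.
mmu-miR-17-5p: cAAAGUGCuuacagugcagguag
mmu-miR-20a-5p: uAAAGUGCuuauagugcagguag
mmu-miR-18a-5p: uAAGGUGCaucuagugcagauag
mmu-miR-19a-3p: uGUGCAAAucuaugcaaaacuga
mmu-miR-19b-3p: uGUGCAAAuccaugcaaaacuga
miR-17-5p and miR-20a-5p share a seed, and miR-19a-3p and miR-19b-3p share another. The array values are those of probe sets named for the precursor genes, not of mature microRNA. Mir17hg measured 7.05, 7.01 and 6.41 in KSR and 6.16 and 5.73 in 2i, and Mir19b-1 7.14, 7.01 and 6.43 against 6.10 and 5.66, differences of -0.88 and -0.98. Mir18, Mir20a and Mir19a were separated downward too, at -0.91, -0.87 and -0.83, and Mir17 overlapped, at -0.81. MEFs in FBS and in iCD1 were lower than every pluripotent array for Mir17hg, at 4.63 and 3.57.

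X-linked genes made up 3.71% of all genes, 2.69% of those separated upward and 4.60% of those separated downward. Among the 68 large downward genes they were 10 (14.7%), namely Lpar4, Nxf2, Nxf3, Pim2, Rhox13, Rragb, Smarca1, Taf7l, Tspan6 and Usp26, and among the 34 large upward genes 0. In 9 of the 10 the ES array was below the iPS array in 2i. This was common among the 68 large downward genes, where the iPS array was the nearer to KSR in 52. Of 9 Y-linked genes measured 4 were separated downward and 0 upward. Kdm5d, a Y-linked histone demethylase gene, measured 6.14, 5.17 and 6.0 in KSR, 4.70 in iPS and 3.38 in ES cells in 2i, and Eif2s3y, a translation factor gene, 8.14, 7.66 and 7.97 against 7.39 and 6.41. Among these 5 arrays both were lowest in ES cells. In MEFs in FBS and in iCD1, Eif2s3y was at 6.35 and 6.82 and Kdm5d at 5.22 and 6.13. Xist, the RNA of the silenced X chromosome, was low in all 5 arrays, between 4.45 and 4.96, against 7.46 and 8.02 in MEFs. These sex-linked genes were grouped after their values were seen.

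Line O4-4 was the KSR line nearest to 2i for 51 of the 68 large downward genes and 19 of the 34 large upward genes. O4-4 differed 2-fold or more from iPS cells in 2i in 193 genes, fewer than O4-1, the same line in the other medium, with 286, or O4-2 with 464. The iPS and ES cultures in 2i differed so from each other in 195 genes. Between KSR lines it was 122 genes for O4-1 and O4-2, 310 for O4-1 and O4-4, and 564 for O4-2 and O4-4. The spread within a medium was thus of similar size to the difference between media. Leaving O4-4 out raised the large genes to 126 upward and 180 downward. Leaving out the iPS array in 2i, which was nearer to KSR than the ES array in 28 and 52 of the large genes, raised them to 154 and 152.

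Within line O4-1, the only line in both media, the 34 large upward genes had a median difference of 1.18 and 23 of them differed by 1 or more. The 68 large downward genes had a median of -1.33 there, and 56 were lower by 1 or more. The O4-1 arrays took part in the rule, so these values describe how the difference was shared. The ES array differed more from KSR than the iPS array did, with medians of 1.42 against 0.99 upward and -1.38 against -1.09 downward. The rule did not use the MEF arrays, but it used the 2i and KSR arrays, so counts against either are tilted by the choice of genes. On both MEF arrays 25 of the 34 upward genes were below both 2i arrays, and 2 were above both. Against all KSR arrays 11 of the 34 were below and 8 above in MEFs. Of the 68 downward genes 34 were above both 2i arrays in MEFs and 26 were below. Against all KSR arrays 19 of the 68 were above and 33 below.

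At the edge of the rule, among genes with a mean difference of at least 1, Esrp1, Lefty1 and Myl9 were the nearest inside, with margins of 0.0020, 0.0029 and 0.0071. Syce1, of the synaptonemal complex, Rab11fip5 and Vrtn were the nearest outside, with margins of -0.0013, -0.0087 and -0.02, where a negative margin is an overlap. Of genes whose mean difference alone reached 1, 50 were higher and 97 lower in 2i, separated or not. With a margin of at least 0.25 there were 325 genes upward and 422 downward, and with at least 0.5 there were 53 and 61. By RNA class, 4902 of 18553 protein-coding genes (26.4%), 130 of 675 long non-coding RNA genes (19.3%) and 43 of 297 microRNA genes (14.5%) were separated.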

How the data were processed

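RNA of 7 mouse cultures was hybridised to 7 Affymetrix arrays. The authors deposited log2 expression per probe set, and the submitters' processing notes name RMA and Partek. Not given in the sources used here are versions, probe set definitions and the array's genome build. No further scaling or filter was applied to these values. Low values are not separated from background, and the number of arrays limits the precision.

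Of 28853 probe sets 21789 had exactly 1 gene symbol in the array's annotation, 1621 had several and 5443 had none. Of the 21789, 21698 matched the RefSeq gene table (GRCm38.p6). For 999 genes with several probe sets the probe set with the highest mean on the 7 arrays represented the gene, giving 19938 genes. Array medians lay between 4.97 and 5.03, and no pair of arrays held the same values.

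Both 2i arrays were compared with the 3 KSR arrays by limma 3.58.1 in R 4.3.3 (two-sided, Benjamini-Hochberg adjustment over all genes, threshold 0.05), with 3 residual and 2.59 prior degrees of freedom and a prior SD of 0.155. The fit was tested on simulated data. The difference between iPS and ES cells in 2i enters the residual spread. Counts of separated genes and of list members carry no test. Named genes were the 14 largest mean differences each way among separated genes whose higher group reached the median level, any gene of the 30 lists (529 entries, 46 not measured), and the 3 nearest inside and outside the rule. A Rik gene among the 14 upward was left unnamed. The members and lists were chosen with earlier results of these data known. Motifs were sought on both strands of RefSeq promoters. Alternatives were other scalings, a filter on low values, the mean of a gene's probe sets, other priors, wider margins and leaving out each array.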

Additional observations from a re-analysis of the deposited data

Results flagged for a closer look

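In 1432 genes (7.18%) the iPS and the ES array in 2i lay on opposite sides of all 3 KSR arrays, 17 of them among the 452 list genes measured. The 3 list genes in which these cultures were 1 or more apart, Id2, Thbs1 and Fos, are given here. The difference between the cultures was not tested, since each has 1 array. Id2, an inhibitor of differentiation, measured 4.46, 4.97 and 4.75 in KSR, 4.21 in iPS and 6.43 in ES cells in 2i, so that ES cells were higher than iPS cells by 2.23. Thbs1, a matrix glycoprotein gene, measured 7.89, 8.47 and 8.34 in KSR and 6.66 and 8.61 in 2i, 1.96 higher in ES cells. Fos, an early response gene, measured 6.86, 7.71 and 7.61 in KSR and 6.72 and 7.84 in 2i, 1.12 higher in ES cells. MEFs held 6.94 and 7.37 for Id2 and 12.37 and 10.67 for Thbs1, above all pluripotent arrays.

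Probe sets outside the comparison were separated as well. Of 5443 without a symbol 670 (12.3%) were higher and 372 (6.83%) lower in both 2i arrays, and of 1621 with several symbols 206 (12.7%) were higher and 271 (16.7%) lower. Among these 1 probe set, without a symbol and lower in 2i, had a margin of 1 or more.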

How the results depend on the processing

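No gene passed limma's adjusted threshold under any setting, with a smallest adjusted p of 0.256 (without line O4-4), against 1869 genes at an unadjusted p under 0.05 in the comparison as reported and 1122 (without O4-1 in KSR) to 2679 (without O4-4) when an array was left out. With genes at or above the median level only, 1173 genes had such a p, 3006 were separated, 1153 of them upward, and 22 large genes were upward. Leaving out an array can only add separated genes, by construction: the count then ran from 6878 to 10626 for both directions, from 3446 to 5465 upward and from 3432 to 5380 downward. The large genes ran from 32 to 154 upward and from 53 to 180 downward. Margins of at least 0.25, 0.5 and 1 left 325, 53 and 3 genes upward and 422, 61 and 2 downward. Quantile scaling gave 2570 upward and 2729 downward, and centring 2327 and 2780. No paired analysis was possible because line O4-1 alone was measured in both media.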
